A study of Mus musculus with 12 samples.

Results

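The response to a BRAF inhibitor (BRAFi) was described in control tumors of YUMM1.7, a mouse melanoma line with an activating Braf allele, as 3 BRAFi-treated tumors set against 3 vehicle-treated tumors. These 6 libraries were chosen by their labels from 12, and 12117 of 23940 genes in the table were tested, namely those averaging 1 FPKM or more across all 12. FPKM counts fragments relative to transcript length and to the mapped total of a library, so it is a share of each library and not a count. The control tumors carried no PD-L2 overexpression. The other 6 libraries came from YUMM1.7 tumors with PD-L2 overexpression under the same 2 treatments, 3 tumors each, and shared no library with the comparison described here.

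All tumors grew in immunodeficient mice, which the labels call NSG and the series design calls NOD/SCID. Neither host has mature T or B cells. The labels give vehicle as DMSO and leave the inhibitor, its dose and its duration unstated, and the design text speaks of BRAFi resistance where the labels speak of treatment. Each library was a separate tumor of 1 cell line, so the spread measured is that between tumors. The RNA was poly(A)-selected and prepared without strand information, so overlapping and antisense genes cannot be told apart. In whole tumors, fewer cells of a type and less RNA per cell cannot be told apart either.

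In melanocyte-derived cells with an activated Braf, BRAF phosphorylates MEK, MEK phosphorylates ERK, and ERK switches on immediate early transcription factors together with its own brakes, the Sprouty and Spred proteins and the dual-specificity phosphatases. These genes are therefore widely read as an output of the pathway, and a BRAF inhibitor given for hours lowers them in Braf-mutant melanoma cells. Tumors that grow under the drug are known to regain ERK signalling, among other ways through receptor ligands, RAS regulators or a changed level of BRAF itself.

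BRAFi-treated control tumors differed from vehicle tumors in 899 genes, 7.42% of those tested, with 425 higher (3.51%) and 474 lower (3.91%), by limma on log2(FPKM + 1) at a Benjamini-Hochberg adjusted p under 0.05. The rises were the larger changes, with 126 genes at least 2-fold higher on this scale and 52 at least 2-fold lower. Genes for RAS brakes, AP-1 and EGR factors, secreted peptides and metalloproteinases were among those that rose, and genes for ribosomal proteins, respiratory chain subunits and hemoglobin fell. The groups did not overlap in 36.1% of all tested genes, 19.1% with every BRAFi tumor higher and 17% with every BRAFi tumor lower. All 899 genes kept their direction when any 1 control library was left out, and leaving out a PD-L2 library cannot change a control log2 change. The number called did not hold. It was 0 by limma without vehicle tumor 2, with 3357 genes at an unadjusted p under 0.05, and 2 and 1649 without vehicle tumors 1 and 3. Without BRAFi tumors 1, 2 and 3 it was 413, 4 and 81. PD-L2 libraries enter through the shared estimate of the spread, and leaving out vehicle tumor 1, 2 or 3 or BRAFi tumor 1 of that arm gave 183, 17, 448 or 123. Rescaling every library to the same FPKM sum moved the median of all genes from 0.02 to 0.17 and gave 1196 genes higher and 240 lower.

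The brakes on RAS and on receptor signalling were higher in BRAFi tumors. Of 10 tested members of this list, 6 rose and none fell, against 3.51% of all tested genes called higher. The list's median log2 change was 0.68 against 0.02 for all genes. Spry4, a Sprouty protein that dampens receptor-to-ERK signalling, read 28.8, 22.2 and 32.3 FPKM in vehicle tumors 1, 2 and 3 and 56, 103 and 70.5 FPKM in BRAFi tumors 1, 2 and 3. Every BRAFi tumor lay above every vehicle tumor, with tumor 2 the highest, and the log2 change was 1.40 ± 0.21 (SE, adjusted p = 0.0267). Errfi1, which binds and blocks the EGF receptor, read 162, 140 and 139 FPKM under vehicle and 262, 395 and 425 FPKM under BRAFi (1.26 ± 0.18, adjusted p = 0.0209). Spred1, which recruits neurofibromin to RAS, read 39.8, 47.6 and 58.2 FPKM and then 80.9, 98.3 and 102 FPKM (0.95 ± 0.15, adjusted p = 0.0277). For both genes the lowest BRAFi tumor lay above the highest vehicle tumor. The RAS GTPase-activating proteins Rasa1, Rasa2 and Nf1 rose by 1.08 ± 0.15, 0.63 ± 0.13 and 0.74 ± 0.17 (adjusted p = 0.0209, 0.033 and 0.0362). Rasa1 went from 30.5, 34.1 and 38.4 FPKM to 64.2, 70.4 and 88 FPKM. Spry2 overlapped between the groups (0.40 ± 0.20, adjusted p = 0.196).

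The ERK phosphatases leaned the same way without a call. None of 10 tested members passed by limma, with 5 at an unadjusted p under 0.05, where 31.8% of all tested genes lay. Higher in every BRAFi tumor were 6 of them, against 19.1% of all tested genes, and the median log2 change was 0.78. Dusp6, which removes phosphate from ERK in the cytoplasm, read 76.3, 62.4 and 99.7 FPKM under vehicle and 190, 108 and 128 FPKM under BRAFi (0.81 ± 0.22, adjusted p = 0.0513). Dusp5, its nuclear counterpart, read 10.1, 8.77 and 16.3 FPKM and then 35.4, 47.2 and 44.9 FPKM (1.81 ± 0.53, adjusted p = 0.0575). The 2 groups were separate for both, and Dusp6 was highest in BRAFi tumor 1.

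**Figure D1:**
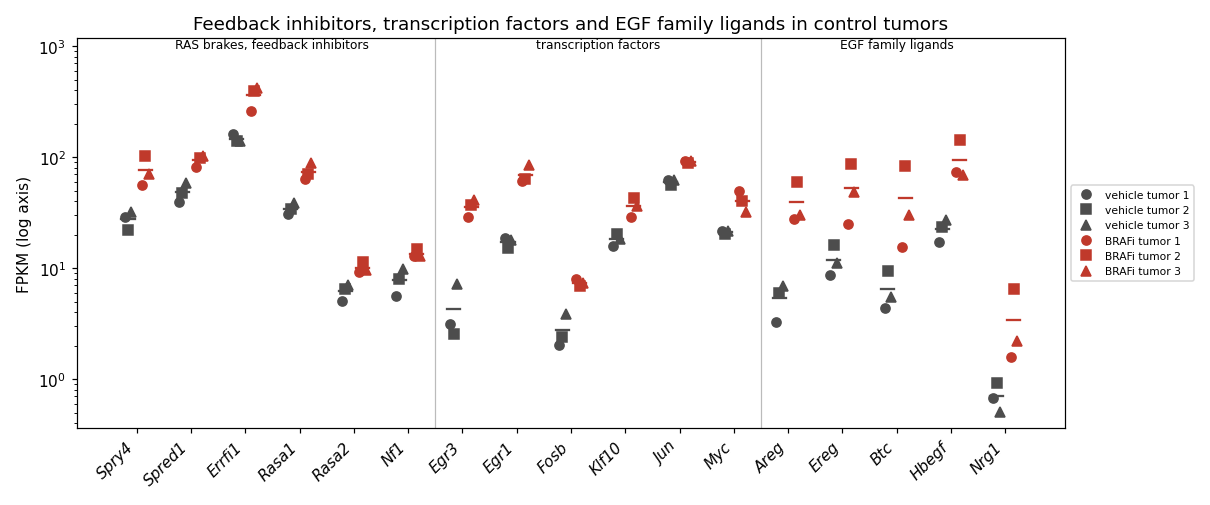
FPKM on a log axis in each control tumor, vehicle in grey and BRAFi in red, with a marker shape for each tumor number and a bar at the mean of 3. The 6 RAS brakes and 6 transcription factors shown are those called higher in their lists, and the 5 EGF family ligands are all that were tested. Uncalled members of the first lists, such as Spry2, which overlapped, are left out. In the 17 genes chosen this way the 3 BRAFi tumors lie above the 3 vehicle tumors, and Areg, Ereg, Btc and Nrg1 are highest in BRAFi tumor 2.

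Transcription factors that ERK induces were higher as well. Of 25 tested members 6 rose and none fell, against 3.51% of all tested genes called higher, with a median log2 change of 0.60. In 13 of them every BRAFi tumor was higher, against 19.1% of all tested genes. Egr3, a zinc-finger immediate early factor, showed the firmest rise among them, from 3.15, 2.54 and 7.21 FPKM to 29, 36.9 and 40.8 FPKM (2.87 ± 0.35, adjusted p = 0.0182), and passed in 9 of the 12 fits that left out a library. Its relative Egr1 read 18.6, 15.2 and 17.8 FPKM under vehicle and 60.7, 63.1 and 85.1 FPKM under BRAFi (1.95 ± 0.43, adjusted p = 0.0358). BRAFi tumor 3 was the highest for both, and no tumors overlapped. The AP-1 subunits Fosb and Jun rose by 1.18 ± 0.26 and 0.58 ± 0.11 (adjusted p = 0.0361 and 0.0301), Jun from a narrow 56.2 to 62.8 FPKM to an equally narrow 88.1 to 92.8 FPKM. Klf10 rose by 0.94 ± 0.16 and Myc by 0.88 ± 0.23 (adjusted p = 0.0288 and 0.0463). Fosl1 and cyclin D1 (Ccnd1), both above every vehicle tumor, had log2 changes of 0.87 ± 0.35 and 0.68 ± 0.23 (adjusted p = 0.119 and 0.0774).

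Ligands of the EGF receptor family were higher in all BRAFi tumors for each of the 5 tested members, against 19.1% of all tested genes. Their median log2 change was 1.97, and 1 of the 5 passed, against 3.51% of all tested genes called higher. Amphiregulin (Areg) read 3.29, 6 and 6.89 FPKM in vehicle tumors and 28, 60.1 and 30 FPKM in BRAFi tumors (2.62 ± 0.62, adjusted p = 0.0396). Epiregulin (Ereg) read 8.64, 16.1 and 11.1 FPKM and then 24.8, 86.8 and 48.4 FPKM (1.94 ± 0.61, adjusted p = 0.0679). Betacellulin (Btc) had a log2 change of 2.30 ± 0.80 and Hbegf, the heparin-binding member, 1.97 ± 0.60 (adjusted p = 0.0843 and 0.063). BRAFi tumor 2 was the highest for Areg, Ereg, Btc, Hbegf and the neuregulin gene Nrg1, whose log2 change was 1.23 ± 0.50 (adjusted p = 0.124). The receptor Egfr read 3.57 to 4.64 FPKM under vehicle and 7.32 to 12.5 FPKM under BRAFi without passing the test (0.94 ± 0.29, adjusted p = 0.0627).

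Within the RAS-RAF-MEK-ERK core the direction was mixed, with 3 of 25 members higher, 2 lower and a median log2 change of -0.02. Among all tested genes 3.51% were called higher and 3.91% lower. Braf, the drug's target, read 2.3, 4.1 and 4.43 FPKM in vehicle tumors and 15.3, 29.7 and 9.14 FPKM in BRAFi tumors (1.93 ± 0.34, adjusted p = 0.0288). BRAFi tumor 2 stood highest and tumor 3 lowest, still above every vehicle tumor. The exchange factor gene Sos2 and the ERK-activated kinase gene Rps6ka3 rose by 0.54 ± 0.13 and 0.98 ± 0.26 (adjusted p = 0.0408 and 0.0473). Map2k2, which encodes MEK2, and Mapk3, which encodes ERK1, were lower at -0.44 ± 0.10 and -0.37 ± 0.09 (adjusted p = 0.0396 and 0.0447). Among PI3K pathway genes, the catalytic subunit Pik3ca, the regulatory subunit Pik3r3 and the lipid phosphatase Inpp4b rose by 0.68 ± 0.12, 0.64 ± 0.16 and 1.10 ± 0.30 (adjusted p = 0.0292, 0.045 and 0.0498), with 26 of 29 members not called. YUMM1.7 is known to lack Cdkn2a, but a value over a whole gene does not check a deletion of some exons. Cdkn2a read 4.9 to 5.93 FPKM and then 3.46 to 4.14 FPKM.

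The genes beside Braf on chromosome 6 were higher together with it in 2 of the 3 BRAFi tumors. This run of genes was chosen after its values were seen. Over the 7 tested neighbours from Kdm7a to Mrps33, without Braf, the median log2 difference from the mean of the vehicle tumors was 0.89 in BRAFi tumor 1, 1.41 in tumor 2 and -0.09 in tumor 3. More than 0.5 above that mean were 5, 7 and 1 of the 7. The histone demethylase gene Kdm7a read 4.52, 7.16 and 7.97 FPKM under vehicle and 30.8, 79.6 and 14.3 FPKM under BRAFi (2.20 ± 0.47, adjusted p = 0.0341). Dennd2a, which acts on Rab GTPases, read 33, 32.3 and 40.4 FPKM and then 75.7, 94.2 and 45.8 FPKM (0.96 ± 0.22, adjusted p = 0.0396). Slc37a3 read 10.6, 10.8 and 13.3 FPKM under vehicle, 37 and 51.2 FPKM in BRAFi tumors 1 and 2 and 11.3 FPKM in tumor 3, and Mkrn1 and Adck2 had the same order. The 8 flanking genes in the same window had medians of 0.02, -0.24 and 0.02 in BRAFi tumors 1, 2 and 3. The run has no sharp edge, since the flanking gene 4930599N23Rik, next to Kdm7a, stood at 0.88 and 2.14 in BRAFi tumors 1 and 2, and Mrps33 inside the run at -0.11 in tumor 1. In PD-L2 tumors under BRAFi the neighbours' medians were 0.02, 0 and -0.26 relative to control vehicle. Gene copy number was not measured in these data and its part in the result was not tested.

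**Figure D2:**
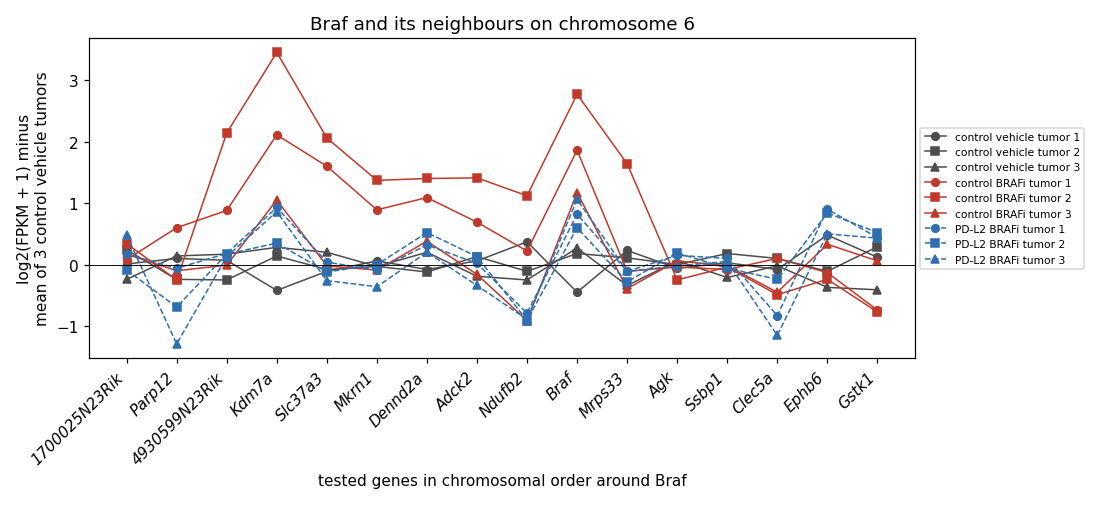
Log2(FPKM + 1) minus the mean of the 3 control vehicle tumors for 16 tested genes in chromosomal order around Braf, with a line for each tumor (grey control vehicle, red control BRAFi, dashed blue PD-L2 BRAFi). The lines of control BRAFi tumors 1 and 2 run above 0 from Kdm7a to Braf, and the line of tumor 3 passes 0.5 for Kdm7a and Braf.

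Secreted peptides included the largest rises. Of 12 tested peptide hormone and neuropeptide genes 4 rose and none fell, against 3.51% of all tested genes called higher. Npy, neuropeptide Y, read 0.136, 0.109 and 0.465 FPKM in vehicle tumors and 225, 5.4 and 11.2 FPKM in BRAFi tumors (4.41 ± 1.10, adjusted p = 0.0429). Nppb, the precursor of brain natriuretic peptide, read 9.45, 10 and 10.4 FPKM and then 102, 779 and 96.3 FPKM (4.18 ± 1.08, adjusted p = 0.046). One tumor stood far above the others in each case, tumor 1 for Npy and tumor 2 for Nppb, and the groups stayed apart. Pthlh, the parathyroid-hormone-related protein, rose by 3.54 ± 0.86 from 1.92, 1.93 and 5.19 FPKM to 26.7, 115 and 24.8 FPKM (adjusted p = 0.0401). Stc1, the calcium-regulating hormone stanniocalcin, rose more evenly, from 17, 20.4 and 40.8 FPKM to 104, 170 and 83.9 FPKM (2.19 ± 0.41, adjusted p = 0.0301).

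Ligands of developmental pathways and cytokines rose in small numbers, where 3.51% of all tested genes were called higher. Inhba, the activin A subunit, rose by 1.68 ± 0.38, the BMP antagonist Grem1 by 1.57 ± 0.39 and the SMAD repressor Skil by 0.63 ± 0.16 (adjusted p = 0.0383, 0.0429 and 0.043), 3 of 23 genes of the BMP and TGF-beta list. Both called genes of 17 in the Notch list encode ligands. Dll1 read 2.05, 2 and 5.24 FPKM and then 17.4, 24.9 and 17.7 FPKM (2.43 ± 0.40, adjusted p = 0.0288), and Jag1 rose by 1.38 ± 0.34 (adjusted p = 0.0424). The Wnt effectors Tcf7 and Lef1 rose by 1.34 ± 0.29 and 0.73 ± 0.19 (adjusted p = 0.0354 and 0.0484), with 27 of 29 genes of that list not called. Of 12 tested cytokines of the IL-1, IL-6 and IL-10 families 2 rose and none fell, with a median log2 change of 0.75. In 6 of the 12 every BRAFi tumor was higher, against 19.1% of all tested genes. Il10, an anti-inflammatory member, read 0.249, 0.613 and 1.36 FPKM under vehicle and 5.71, 10.6 and 6.82 FPKM under BRAFi (2.33 ± 0.47, adjusted p = 0.0315). Il34, a ligand of the CSF1 receptor, rose by 0.62 ± 0.15 (adjusted p = 0.0429). Fgf7 rose by 0.74 ± 0.16 and the receptor Pdgfra by 0.58 ± 0.15 (adjusted p = 0.0354 and 0.0464). Gas6, the ligand of the receptor AXL, fell from 33.4, 36.4 and 33.7 FPKM to 10, 10.2 and 9.65 FPKM (-1.69 ± 0.37, adjusted p = 0.0354). Axl itself read 140 to 155 FPKM and then 177 to 196 FPKM (0.34 ± 0.12, adjusted p = 0.088).

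Of a metalloproteinase cluster on chromosome 9, Mmp1a, Mmp1b and Mmp10 rose. Mmp1a, a collagenase that cuts fibrillar collagen, read 0.613, 0.75 and 1.16 FPKM in vehicle tumors and 74.5, 26.1 and 4.62 FPKM in BRAFi tumors (3.63 ± 0.70, adjusted p = 0.0301). Its near-copy Mmp1b, whose reads may be shared with it, rose by 2.45 ± 0.66 from 0.237 to 0.361 FPKM to 1.01 to 22.8 FPKM (adjusted p = 0.0498). Mmp10, a stromelysin, read 3.9, 12.1 and 22.5 FPKM and then 213, 191 and 31.2 FPKM (3.26 ± 0.80, adjusted p = 0.0409). BRAFi tumor 1 was the highest and tumor 3 the lowest for all of Mmp1a, Mmp1b and Mmp10. The neighbours Mmp3 and Mmp13 were higher in every BRAFi tumor at 1.08 ± 0.34 and 1.25 ± 0.40 without passing (adjusted p = 0.0673 and 0.0683). Mmp12 of the same cluster overlapped between the groups (0.78 ± 0.65, adjusted p = 0.426). Mmp9, a gelatinase of another chromosome, stood at 1.03 ± 0.32 (adjusted p = 0.0655), against 3.40 ± 0.32 in PD-L2 tumors. The difference between these responses did not pass by limma (unadjusted p = 0.000293, adjusted p = 0.443). In all 5 of 35 metalloproteinase and inhibitor genes (14.3%) rose and none fell, against 3.51% of all tested genes called higher. The other called genes were the sheddase Adam19 (1.39 ± 0.26, adjusted p = 0.0301) and the inhibitor Timp3 (0.69 ± 0.11, adjusted p = 0.0277).

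The promoters of the cluster's called genes and of its uncalled member Mmp3 are shown because these neighbours can be compared base by base, and that of Areg because it was the called EGF family ligand. The 100 bases before the start site are from RefSeq (GRCm38.p6), read 5′ to 3′ on the strand of the gene, with an AP-1 motif (TGANTCA), a CRE motif (TGACGTCA) and a TATA motif (TATAAA), searched on both strands, in capitals. They were chosen after their values and motifs were seen. The windows are chr9:7464041-7464140 on the plus strand, chr9:7388027-7388126 on the minus strand, chr9:7502242-7502341 and chr9:7445722-7445821 on the plus strand and chr5:91139499-91139598 on the plus strand.
Mmp1a: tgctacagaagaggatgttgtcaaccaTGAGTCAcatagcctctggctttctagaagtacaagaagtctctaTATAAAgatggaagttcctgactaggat
Mmp1b: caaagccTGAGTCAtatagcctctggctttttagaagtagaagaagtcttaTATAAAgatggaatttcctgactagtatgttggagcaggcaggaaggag
Mmp10: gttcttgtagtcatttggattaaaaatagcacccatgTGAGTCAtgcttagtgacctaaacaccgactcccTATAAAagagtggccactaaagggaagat
Mmp3: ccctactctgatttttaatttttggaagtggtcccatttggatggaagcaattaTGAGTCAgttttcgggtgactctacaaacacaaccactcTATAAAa
Areg: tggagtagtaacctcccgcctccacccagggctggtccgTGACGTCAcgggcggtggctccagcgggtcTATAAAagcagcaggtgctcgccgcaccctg
A promoter window was found for 9332 tested genes, and all shares refer to the 250 bases before the start. The AP-1 motif was present in 7 of 90 genes called at least 2-fold higher (7.78%), in 17 of 328 called higher (5.18%), in 14 of 378 called lower (3.7%) and in 4.41% of all windows. The CRE motif was present in 7 of those 90 (7.78%), in 2.44% of the genes called higher, in 2.12% of those called lower and in 2.8% of all windows. The TATA motif stood in 14.4% of the 90, in 7.01% of the genes called higher, in 7.14% of those called lower and in 6.49% of all. An ETS motif (CCGGAAGT) stood in 0 of the 90, in 6.71% of the genes called higher, in 5.03% of those called lower and in 6.23% of all. The AP-1 and TATA motifs were present in Mmp3, which did not pass, as in the called genes. These are descriptions of letters with no test.

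Enpp2, the secreted enzyme autotaxin that makes lysophosphatidic acid, was the called gene that passed in the most leave-one-out fits, 11 of 12. It read 2.1, 0.994 and 0.79 FPKM in vehicle tumors and 7.55, 8.25 and 6.87 FPKM in BRAFi tumors (1.94 ± 0.20, adjusted p = 0.0148). All 3 BRAFi tumors lay close together and well above vehicle. Serpine2, an extracellular inhibitor of thrombin and plasminogen activators, rose from 43.5, 24.1 and 29.8 FPKM to 134, 112 and 87.1 FPKM (1.76 ± 0.25, adjusted p = 0.0209). Sema7a, a membrane-anchored semaphorin that binds integrins, rose from 79.6 to 89.6 FPKM to 174 to 223 FPKM (1.19 ± 0.16, adjusted p = 0.0209). Serpine2 and Sema7a each passed in 9 of the 12 fits. Of 27 semaphorin, plexin and neuropilin genes 4 rose (14.8%) and none fell, against 3.51% of all tested genes called higher. Besides Sema7a these were Sema6d (1.16 ± 0.23), Sema3b (1.06 ± 0.23) and Sema3a (0.98 ± 0.25), at adjusted p from 0.031 to 0.045.

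Matrix and adhesion genes rose in small numbers from lists that leaned upward, where 3.51% of all tested genes were called higher. Of 30 collagen and laminin chains 4 rose and none fell, and the median log2 change was 0.57, or 0.29 with the length trend removed, when none of the 4 passed. Col12a1, a chain of a fibril-associated collagen, read 19.4, 18.2 and 24 FPKM and then 65.5, 46.3 and 63.3 FPKM (1.46 ± 0.25, adjusted p = 0.0288). The basement membrane chains Col4a2, Col18a1 and Lamb1 rose by 0.99 ± 0.25, 0.58 ± 0.12 and 0.57 ± 0.14 (adjusted p = 0.0442, 0.033 and 0.0421). Fbn2, a microfibril protein, read 5.96, 5.73 and 11.6 FPKM and then 24.5, 33 and 35.6 FPKM (1.92 ± 0.25, adjusted p = 0.0209). Thrombospondin-1 (Thbs1) rose by 1.54 ± 0.40 (adjusted p = 0.0472). Of 21 integrin genes 3 rose, the collagen-binding Itga2 by 2.05 ± 0.36, the vitronectin-binding Itgb3 by 1.63 ± 0.42 and the laminin-binding Itga6 by 1.84 ± 0.49 (adjusted p = 0.0288, 0.045 and 0.0482). Itga2 read 1.03, 1.75 and 3.68 FPKM under vehicle and 10.9, 17.5 and 7.49 FPKM under BRAFi. The Hippo pathway effectors Wwtr1 and Tead1 and the membrane protein Myof rose by 0.52 ± 0.12, 0.91 ± 0.22 and 1.22 ± 0.25, 3 of 34 in that list (adjusted p = 0.036, 0.0396 and 0.032).

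Single genes of channels and synapses rose, with none lower. They were 2 of 17 potassium channel genes (11.8%), 1 of 26 calcium and TRP channel genes (3.85%) and 1 of 12 glutamate receptor and synaptic genes (8.33%). Of all tested genes 3.51% were called higher. Cacng3, an auxiliary subunit of AMPA receptors, read 0.37, 0.0833 and 0.0415 FPKM in vehicle tumors and 14.1, 32.6 and 17.3 FPKM in BRAFi tumors (4.19 ± 0.49, adjusted p = 0.0182). Kcnk3, a background potassium channel outside these lists, read 0.243, 0.238 and 0.32 FPKM and then 3.29, 9.54 and 5.05 FPKM (2.36 ± 0.29, adjusted p = 0.0182). Vehicle levels of both were under 1 FPKM, and all BRAFi tumors were far above them. The cannabinoid receptor gene Cnr1 and the receptor gene Gpr149 rose by 3.40 ± 0.78 and 3.22 ± 0.76 (adjusted p = 0.0385 and 0.0396), and the vesicle fusion gene Snap25 by 1.28 ± 0.29 (adjusted p = 0.0368). Kcnj12 and Kcnk5 rose by 2.73 ± 0.70 and 0.98 ± 0.18 (adjusted p = 0.045 and 0.0301). Of 29 lipid enzyme genes 4 rose and none fell, Enpp2 (described above) and fatty acid synthase (Fasn, 0.71 ± 0.18), acetyl-CoA carboxylase (Acaca, 0.72 ± 0.18) and the ligase Acsl4 (0.78 ± 0.19), at adjusted p from 0.0435 to 0.046.

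Genes of placenta and of other lineages were among the largest rises, and they were uneven between tumors. Prl8a9 and Prl2c3 of the placental prolactin family whose near-identical copies can share reads, rose by 3.79 ± 0.92 and 4.12 ± 1.07 (adjusted p = 0.0403 and 0.0464). Prl8a9 read 61.5, 19.1 and 1.64 FPKM in BRAFi tumors 1, 2 and 3 and 0.0778 to 0.0852 FPKM under vehicle. Prl2c3 was highest in tumor 2 at 209 FPKM, with 17.3 and 8.64 FPKM in tumors 1 and 3. Plet1, a placenta-expressed membrane protein, rose by 3.73 ± 0.85 (adjusted p = 0.0385), reading 130, 254 and 16.2 FPKM in BRAFi tumors against 3.05 to 11 FPKM, and Plet1os, annotated opposite to it, rose with it by 3.01 ± 0.74 (adjusted p = 0.0413). Dynap, whose BRAFi values ran from 2.42 to 142 FPKM, rose by 3.99 ± 1.04, and Ggct, an enzyme of glutathione turnover, by 2.89 ± 0.76 (adjusted p = 0.0467 and 0.0476). Mcpt1, a mast cell chymase, read 0.342, 1.41 and 2.57 FPKM under vehicle and 31, 98.1 and 28.7 FPKM under BRAFi (4.33 ± 0.61, adjusted p = 0.0209). Of 14 tested neutrophil and mast cell markers 2 were higher and none lower, against 3.51% of all tested genes called higher, with a median log2 change of 0.14. The summed level of the list, which includes Mcpt1 itself, ran from 80.3 to 113 FPKM under vehicle and from 137 to 297 FPKM under BRAFi. The part of mast cells in the rise of Mcpt1 was not tested.

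Many cytosolic ribosomal protein genes fell. Of 47 large-subunit genes 19 were lower, of 32 small-subunit genes 21 were lower, and none was higher, against 3.91% of all tested genes called lower. The median log2 changes were -0.52 and -0.61. The summed level of the small-subunit genes was 44777 to 67404 FPKM in vehicle tumors and 34461 to 38223 FPKM in BRAFi tumors. Rps15 read 3484, 2702 and 1952 FPKM and then 1388, 1277 and 1367 FPKM (-0.97 ± 0.19, adjusted p = 0.0301), and Rps19 1152, 853 and 767 FPKM and then 437, 498 and 559 FPKM (-0.88 ± 0.16, adjusted p = 0.0301). Vehicle tumor 1 was the highest and tumor 3 the lowest of the vehicle tumors for both, and no BRAFi tumor reached them. The large-subunit genes Rpl36, Rpl41 and Rplp1 fell by 1.06 ± 0.20, 0.96 ± 0.19 and 0.78 ± 0.15 (adjusted p = 0.0301, 0.0301 and 0.0307). Ribosomal protein genes have many near-identical copies, so single genes are uncertain. Under quantile normalization the medians of the large and small subunits were -0.14 and -0.16, and with the length trend removed they were -0.33 and -0.42 with 2 genes of each still lower.

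Mitochondrial genes encoded in the nucleus fell as well. Of 37 complex I subunits 16 were lower and none higher (median log2 change -0.50), and of 41 subunits of complexes II to V 19 were lower and none higher (-0.45). Among all tested genes 3.91% were called lower. Ndufb8, a complex I subunit, read 218, 181 and 130 FPKM and then 89.4, 79.8 and 94.4 FPKM (-0.97 ± 0.16, adjusted p = 0.0281). Ndufa1 and Ndufa13 fell by 0.70 ± 0.11 and 0.86 ± 0.16 (adjusted p = 0.0277 and 0.029). Atp5e, a subunit of ATP synthase, read 553, 425 and 349 FPKM and then 173, 202 and 213 FPKM (-1.15 ± 0.20, adjusted p = 0.0288). Cox6a1 of cytochrome oxidase fell by 0.83 ± 0.13 and Uqcr11 of complex III by 0.77 ± 0.14 (adjusted p = 0.0277 and 0.0292). Of 76 mitochondrial ribosomal protein genes 17 were lower and none higher, with a median of -0.26. The firmest of these was Mrpl54, at 110, 91.9 and 77.3 FPKM under vehicle and 48.4, 43.5 and 41.8 FPKM under BRAFi (-1.03 ± 0.13, adjusted p = 0.0182). With the length trend removed 4 genes of complex I, 8 of complexes II to V and 2 mitochondrial ribosomal protein genes were still lower, with medians of -0.29, -0.25 and -0.17. Ndufb2, beside Braf, overlapped between the groups, reading 96.1, 180 and 43.2 FPKM in BRAFi tumors against 68.8 to 106 FPKM under vehicle.

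**Figure D3:**
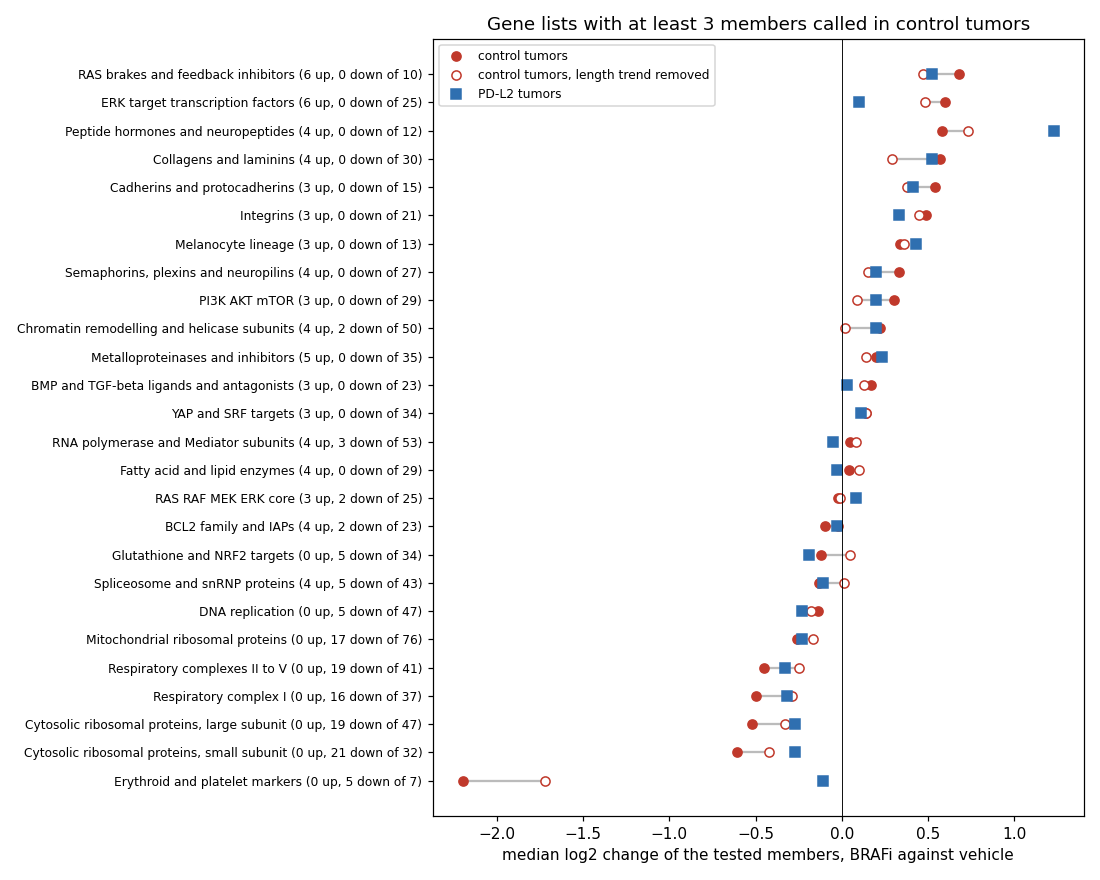
Median log2 change of the tested members for each list with at least 3 called genes in control tumors, in control tumors (filled red), in control tumors with the length trend removed (open red) and in PD-L2 tumors (blue squares), with the called counts beside each name. Ribosomal, respiratory and erythroid lists lie to the left, and the list of RAS brakes and feedback inhibitors lies farthest right in control tumors.

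The direction of change followed transcript length. The median length was 3892 nucleotides for the 425 genes that rose, 932 for the 474 that fell and 2063 for all tested genes. Of 10 length bins of equal size, the bin of the longest genes held 134 called higher and 2 lower, and the bin of the shortest 10 and 123. Median log2 changes were 0.34 in the longest bin and -0.14 in the shortest, and in PD-L2 tumors they were 0.24 and -0.09. With a smooth trend on length removed from each library 191 genes passed (1.59%), 87 higher (0.723%) and 104 lower (0.864%), of which 182 were among the 899. With the longest transcript of each gene as its length 28 passed. RNA integrity was not given, and the part of length in any single change was not tested. After removal the feedback inhibitors kept 4 called genes and a median of 0.47, and Enpp2, Egr3, Cacng3, Kcnk3, Serpine2, Dll1, Stc1 and Braf were among those that still passed (adjusted p = 0.0152, 0.0198, 0.0152, 0.0273, 0.0152, 0.0403, 0.0459 and 0.0439). Npy, Nppb, Areg, Mmp10, Egr1 and Nf1 were among those that no longer passed by limma (adjusted p = 0.059, 0.0603, 0.0584, 0.059, 0.0601 and 0.0615). Called genes went from 6 to 2 among ERK-induced transcription factors, from 4 to 1 among peptide hormones and neuropeptides and from 1 to 0 among EGF family ligands. The PI3K list and the BMP and TGF-beta list each went from 3 to 0.

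**Figure D4:**
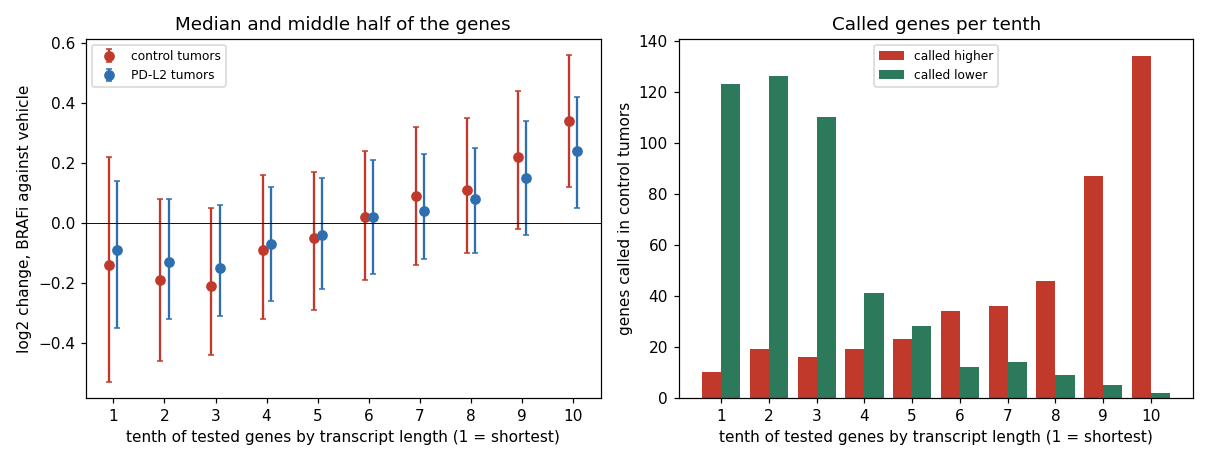
Left, median log2 change under BRAFi with the middle 50% of genes as bars, for 10 length bins of equal size from the shortest to the longest transcript, in control (red) and PD-L2 (blue) tumors. Right, number of genes called higher and lower in control tumors per bin, from 10 and 123 in the shortest to 134 and 2 in the longest.

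Genes of DNA synthesis and redox defence were lower in small numbers, and mitosis genes were at the background, where 3.91% of all tested genes were called lower. Of 47 DNA replication genes 5 fell and none rose, with a median log2 change of -0.14. Gins2, a subunit of the replicative helicase, read 24.9, 21.2 and 22.2 FPKM and then 14, 12.6 and 13.8 FPKM (-0.72 ± 0.11, adjusted p = 0.027). Thymidine kinase (Tk1) read 44.2, 48 and 37.4 FPKM and then 27, 21.3 and 23.8 FPKM (-0.82 ± 0.14, adjusted p = 0.0288). Rfc2, Pold1 and Tyms fell by 0.48 ± 0.10, 0.35 ± 0.09 and 0.43 ± 0.12 (adjusted p = 0.0342, 0.0409 and 0.0499). The kinetochore gene Spc24 and the survivin gene Birc5 fell by 1.03 ± 0.17 and 0.52 ± 0.13, and Cdk4 by 0.37 ± 0.09 (adjusted p = 0.0277, 0.0418 and 0.0408), while 48 of 50 mitosis genes were not called and their median log2 change was 0.07. Of 34 antioxidant and NRF2-related genes 5 fell and none rose, with a median log2 change of -0.12. With the length trend removed 2 of that list were still lower and the median was 0.05. Gpx1, Gpx4, Sod1 and Prdx4 fell by 0.80 ± 0.13, 0.76 ± 0.19, 0.71 ± 0.18 and 0.60 ± 0.13, and Keap1, the brake on NRF2, by 0.53 ± 0.09 (adjusted p from 0.0288 to 0.0449). The BCL2 and IAP list was mixed, with 4 of 23 tested members higher, 2 lower and a median log2 change of -0.10. Only 9 of the 23 had a positive estimate, and 3.51% of all tested genes were called higher. The survival genes Bcl2l1, Bcl2l2, Xiap and Birc6 rose by 0.61 ± 0.14, 0.50 ± 0.12, 0.60 ± 0.15 and 0.90 ± 0.23, and Birc5 and the protease Htra2 (-0.50 ± 0.12) fell (adjusted p from 0.0386 to 0.0467). With the length trend removed 1 member of that list was still called higher and 0 lower. Other short, abundant transcripts with firm falls were Oaz1, the antizyme of polyamine synthesis (-1.02 ± 0.16, adjusted p = 0.0277), and the corepressor gene Aes (-0.74 ± 0.10, adjusted p = 0.0209).

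The 4 tested hemoglobin genes were lower in every BRAFi tumor. Hbb-b1 read 154, 105 and 87.7 FPKM in vehicle tumors and 19.1, 22.9 and 17.3 FPKM in BRAFi tumors (-2.46 ± 0.34, adjusted p = 0.0209). Hba-a1 fell by 2.25 ± 0.36 and Hbb-b2 by 2.20 ± 0.31 (adjusted p = 0.0277 and 0.0209), with the near-copy Hbb-bs at 12.5 to 26.3 FPKM and then 0.000605 to 0.00169 FPKM. Pf4, a platelet chemokine, read 61.8, 76.1 and 42.6 FPKM and then 18.6, 16.3 and 10.2 FPKM (-1.93 ± 0.42, adjusted p = 0.0354). Of 7 tested erythroid and platelet markers 5 fell and none rose, against 3.91% of all tested genes called lower. Lower in every BRAFi tumor were 6 of the 7, against 17% of all tested genes. The summed level of the list was 243 to 354 FPKM under vehicle and 44.4 to 63.6 FPKM under BRAFi. In PD-L2 tumors the list's median log2 change was -0.11 against -2.20 here, but Pf4 stood at -1.29 ± 0.42, beside -1.27 ± 0.33 for the macrophage gene Folr2 and 0.12 ± 0.36 for Hba-a1. For Hbb-b1, Hbb-b2 and Hba-a1 the difference between the responses had unadjusted p = 0.000693, 0.000346 and 0.000759 by limma, and none passed adjustment.

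Macrophage transcripts leaned lower with 1 call of 33, Folr2, a folate receptor of tissue macrophages (35, 45.4 and 36.8 FPKM, then 8.99, 16.1 and 8.47 FPKM, -1.76 ± 0.33, adjusted p = 0.0301). The summed level of the list ran from 3476 to 5053 FPKM under vehicle and from 1435 to 2906 FPKM under BRAFi. Its median log2 change was -0.71, and 15 of the 33 members were lower in every BRAFi tumor. Among all tested genes 3.91% were called lower and 17% were lower in every BRAFi tumor. Cd68 read 101 to 119 FPKM and then 48 to 78.7 FPKM (-0.86 ± 0.28, adjusted p = 0.0761). Cbr2 and the thromboxane synthase gene Tbxas1, which are not in the list, fell by 1.97 ± 0.46 and 1.53 ± 0.32 (adjusted p = 0.0396 and 0.033). None of 34 interferon-stimulated genes and none of 19 MHC class I presentation genes was called, with 1 and 0 at an unadjusted p under 0.05. Their per-tumor medians relative to vehicle were 0.88 and 0.51 in BRAFi tumor 1 and -1.72 and -1.71 in BRAFi tumor 2. Skeletal muscle markers stood apart in vehicle tumor 3 alone, with a sum of 614 FPKM, and vehicle sums began at 8.99 FPKM against 10.6 to 33.5 FPKM under BRAFi, with none of 16 called and 1 at an unadjusted p under 0.05. Pericyte and fibroblast markers, taken as 1 list, summed to 1811 to 2086 FPKM and then 2277 to 2412 FPKM, with Cspg4 and Pdgfra higher. The part of host cells in the changes above was not tested.

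As a check on the label, melanocyte genes were mostly low. Of 29 lineage genes 13 passed the filter, of which 3 rose and none fell (median log2 change 0.34), against 3.51% of all tested genes called higher. Dct and Tyrp1 were listed at 0 in all 6 control tumors, with Pmel at no more than 0.603 FPKM. Mitf, the lineage transcription factor, read 3.57 to 4.06 FPKM under vehicle and 3.6 to 5.16 FPKM under BRAFi (0.08 ± 0.18, adjusted p = 0.774). The transcription factor gene Sox5 and the pigment gene Slc24a5 were among those that rose, by 0.94 ± 0.18 and 0.58 ± 0.15 (adjusted p = 0.0301 and 0.0484). Sox10 differed between tumors, at 24.9, 0.091 and 6.66 FPKM in BRAFi tumors 1, 2 and 3 and at most 0.367 FPKM under vehicle (2.38 ± 0.86, adjusted p = 0.0926). Of the ligands of PD-1, Cd274, which encodes PD-L1, rose from 2.49, 2.13 and 2.66 FPKM to 4.79, 6.33 and 6.21 FPKM (0.98 ± 0.24, adjusted p = 0.0398). The list of PD-1 ligands and B7 family genes held 1 call among 14 tested members, with a median log2 change of -0.13. With the length trend removed 0 members of that list were called. Pdcd1lg2, which encodes PD-L2, was low in control tumors, at 0.133 to 0.278 FPKM and then 0.863 to 3.54 FPKM (1.08 ± 0.72, adjusted p = 0.317). Every BRAFi tumor lay above every vehicle tumor for this gene. Its SE draws on all 12 libraries, 6 of them with PD-L2 overexpression, so it is not the spread between control tumors alone.

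The response of control tumors was mostly shared in direction with that of PD-L2 tumors. Of the 425 genes called higher, 411 (96.7%) also had a higher estimate in PD-L2 tumors, and of the 474 called lower, 461 (97.3%) a lower one, against 76.7% with the same sign among all tested genes. The median log2 change of the genes called higher was 0.75 in control tumors and 0.44 in PD-L2 tumors, and that of the genes called lower -0.67 and -0.40. These genes were called on the control tumors, so a larger value there is a result of how they were chosen. In PD-L2 tumors 29 genes were called (0.239%), 9 of them also in control tumors, and the groups did not overlap in 29.9% of genes.

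The difference between the responses was called for 2 genes (0.0165%), the microRNA genes Mir212 and Mir1940, which were listed at 0 in all 6 control tumors and passed the filter on low values through PD-L2 BRAFi tumors alone. Among genes called in control tumors the smallest unadjusted p for the difference belonged to Gng11, a G protein subunit. It read 115, 107 and 71.1 FPKM in control vehicle tumors and 63.1, 43 and 59.1 FPKM under BRAFi, and 54, 40.5 and 50.7 FPKM and then 101, 113 and 110 FPKM in PD-L2 tumors. Its log2 change was -0.80 ± 0.20 in control and 1.15 ± 0.20 in PD-L2 tumors (difference 1.95 ± 0.28, adjusted p = 0.126). Kcnk3 read 0.22 to 0.745 FPKM in PD-L2 vehicle and 0.496 to 0.659 FPKM in PD-L2 BRAFi tumors, a log2 change of 0.11 ± 0.29 against 2.36 in control tumors (adjusted p of the difference = 0.418). Atp10a, a lipid flippase, changed by 1.23 ± 0.18 in control tumors and stood at -0.09 ± 0.18 in PD-L2 tumors (adjusted p of the difference = 0.468). Fgf7, the proteoglycan gene Cspg4 and the homeobox gene Nkx2-2 changed by 0.74 ± 0.16, 1.22 ± 0.23 and -0.54 ± 0.12 in control tumors and stood at -0.36 ± 0.16, -0.16 ± 0.23 and 0.15 ± 0.12 in PD-L2 tumors (unadjusted p of the difference 0.000583, 0.00161 and 0.00152). Areg stood at 0.36 ± 0.62 in PD-L2 tumors with 4.71 to 40.3 FPKM under BRAFi, and Braf at 0.61 ± 0.34 (unadjusted p of the difference 0.0273 and 0.019 by limma). Of the 899 called genes 124 (13.8%) had an unadjusted p under 0.05 for the difference, and 4.47% of all tested genes did. The difference contains the control response on which the 899 were called, so a higher share among them is a result of how they were chosen.

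**Figure D5:**
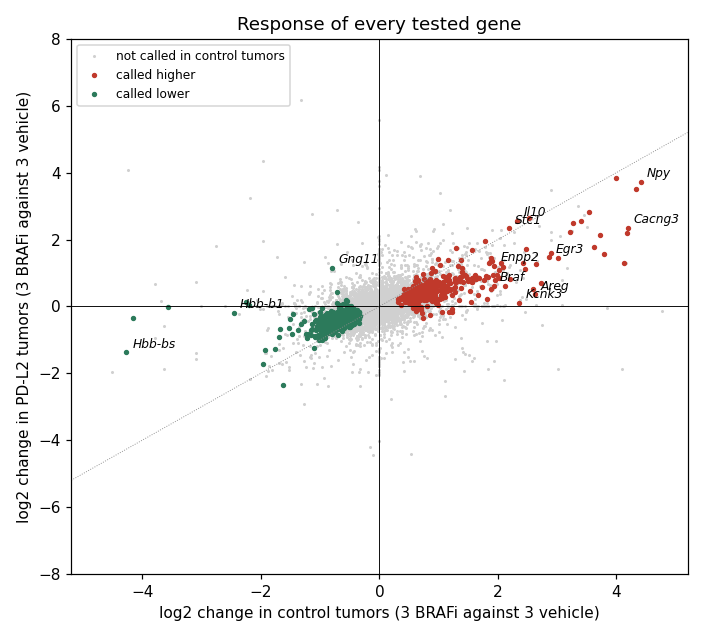
Log2 change under BRAFi in control tumors (horizontal) and in PD-L2 tumors (vertical) for every tested gene, each from 3 against 3 tumors, with genes called in control tumors in red (higher) and green (lower) and the dotted line marking equal changes. Most called genes lie at the lower left and upper right, between the horizontal axis and the dotted line, while Gng11 lies at the upper left.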

How the data were processed

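RNA-seq of 12 tumors was deposited as 1 table of FPKM values per gene, which the authors made on mm9; the submitters' processing notes name TopHat, TopHat2, Cuffnorm and Cuffdiff, with no role or version. The labels state paired-end and the series design single-end reads. FPKM of low genes gave no whole reads (at most 0.119 of 2576 low genes at 1 ratio in 66 library pairs), so depth is unknown and no counting interval is given. FPKM sums ran from 499845 to 648254, and 4192 genes were at 0 throughout.

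The 12117 genes averaging 1 FPKM or more were tested on log2(FPKM + 1), which understates changes of low genes, with limma 3.58.1 in R 4.3.3 (trend, all 12 libraries, 1 mean per group), two-sided, with Benjamini-Hochberg adjustment over all tested genes at 0.05. Values with ± are log2 changes with SE, from 3 tumors a group, on that scale. An exact permutation test of 3 against 3 cannot go below p = 0.1 and was not used. The fit was checked on simulated data. Transcript lengths came from GENCODE vM21 by symbol (99.4% of tested genes). The members and gene lists were chosen with earlier results of these data known. Named genes were the 15 largest separated changes in each direction at 5 FPKM or more, the 12 per direction passing most leave-one-out fits, up to 6 list members by smallest p, others for their role, and the 10 with the smallest p for the difference. Alternatives were the pseudocount, the filter, scaling, length, a replicate block, the libraries fitted and leaving out each library. Some items are not reported here.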

Additional observations from a re-analysis of the deposited data

Results flagged for a closer look

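The microRNA genes Mir212 and Mir1940 differed between the BRAFi responses of PD-L2 and control tumors by 4.18 ± 0.22 and 3.61 ± 0.24 on the log2 scale (adjusted p = 1.68e-05 and 0.000107 by limma). Both were listed at 0 in all 3 PD-L2 vehicle tumors and in all 6 control tumors, where an exact 0 can be a failed estimate for so short a gene. They passed the filter on low values through the 3 PD-L2 BRAFi tumors alone, at 14.8 to 18.5 FPKM and 9.33 to 12.9 FPKM, and the zeros add no spread, so these values describe the files and support no difference in response. Gng11 and Zfp503 moved in opposite directions, with every BRAFi tumor below vehicle in control tumors and above vehicle in PD-L2 tumors. The differences were 1.95 ± 0.28 and 1.13 ± 0.20 (adjusted p = 0.126 and 0.418 by limma), so neither passed. Groups of 3 tumors were too small for a test of outlying tumors.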

How the results depend on the processing

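Of 161 genes named with a log2 change, the 138 called ones kept their direction under every alternative. Mitf, not called, had values of -0.07 with the longest transcript as length and -0.05 without BRAFi tumor 3. The 899 calls became 196 with no filter, 1436 with equal FPKM sums, 18 in a fit to the 6 control libraries, 191 with the length trend removed, 386 with that trend removed and a replicate block, and 28 with the longest transcript as length, an alternative chosen after seeing the data. The counts ranged from 0 to 1649 when 1 library was left out.

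The 29 calls in PD-L2 tumors became 17 with no filter, 45 at a mean of 5 FPKM, 16 with equal sums, 46 with quantile normalization, 5 in a fit to their 6 libraries, 21 with the length trend removed and 7 with the replicate block as well, and 3 to 136 when 1 library was left out. The 2 called differences became 1 with a pseudocount of 0.1, 0 at a mean of 5 FPKM by limma, 1 with the length trend removed, 1 with the replicate block as well, and 2 to 5 when 1 library was left out. The cause of these shifts was not tested. A replicate block alone gave 1334, 29 and 2 calls. Deviations of same-numbered vehicle and BRAFi control tumors correlated at 0.13, 0.16 and -0.06, so the numbers were not taken to pair tumors. Depth is unknown, so genes near 0 FPKM are the least certain.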

Other observations

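Several gene groups held few or no calls in control tumors. None of 32 glycolysis and hypoxia genes, 30 sterol synthesis genes, 22 heat shock genes, 20 cytosolic tRNA synthetases and 34 Fanconi and homologous recombination genes passed by limma, with 2, 5, 9, 5 and 1 at an unadjusted p under 0.05, against 31.8% of all tested genes. Of the tRNA synthetases 19 of 20 had a higher estimate and 11 were higher in every BRAFi tumor, against 19.1% of all tested genes. Of 38 proteasome subunits 1 was lower, and of 28 p53 targets 1 was higher, where 3.91% of all tested genes were called lower and 3.51% higher.

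Other runs of neighbouring genes were uneven between BRAFi tumors, and these were picked after their values were seen. In the placental prolactin cluster on chromosome 13, Prl3d1, Prl3d2, Prl3d3, Prl6a1 and Prl2a1 read 19.6, 32.7, 21.4, 13.7 and 21.1 FPKM in BRAFi tumor 1. In BRAFi tumor 3 they read 0.0851, 0.105, 0, 0.56 and 0 FPKM, and in vehicle tumors none exceeded 0.561 FPKM. Copies of this family are near-identical and can share reads. On chromosome 7, Kcnq1, Phlda2, Tnfrsf22 and Tnfrsf23 read 5.57, 2.11, 9.11 and 32.5 FPKM in BRAFi tumor 1, 29, 41, 33.5 and 78.6 FPKM in tumor 2 and 0.699, 7.77, 6.04 and 13.8 FPKM in tumor 3. Their highest vehicle values were 1.02, 0.228, 4.91 and 17.3 FPKM. Between them Nap1l4 read 57.9, 74.2 and 50 FPKM in BRAFi tumors 1, 2 and 3 against 55.3 to 60.1 FPKM, and Cars 29.9, 51.5 and 26.1 FPKM against 19.1 to 23.2 FPKM. On chromosome 5 Gm1045 read 28.3, 94 and 6.83 FPKM in BRAFi tumors 1, 2 and 3 and 4.01 to 12.7 FPKM under vehicle. Between it and Btc lie Rchy1 and Thap6, which overlapped between the groups. Under BRAFi they read 23.6 to 27.9 FPKM and 2.66 to 4.54 FPKM, against 25.6 to 26.7 FPKM and 2.41 to 2.82 FPKM under vehicle.

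Rnu12 and Mir680-2 were listed at 0 in all 3 control BRAFi tumors. Under vehicle Rnu12 read 20.1, 15.9 and 14.9 FPKM and Mir680-2 15.3, 6.54 and 12.6 FPKM. Both are short RNAs for which FPKM after poly(A) selection is unsure, and no fold is given.

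Smaller falls from the list of the largest included the phosphatase gene Ptpn18 (-1.68 ± 0.41), the matrix gene Spon2 (-1.63 ± 0.31), Smagp (-1.50 ± 0.40) and Gm1673 (-1.47 ± 0.31), at adjusted p from 0.0301 to 0.0492 by limma. Firm in 8 or 9 of 12 leave-one-out fits were the falls of Tmem261, Prkag2, Ngfrap1 and Pcbd2 (-0.89 ± 0.12, -1.03 ± 0.15, -1.01 ± 0.16 and -1.16 ± 0.18) and the rise of Sipa1l2 (1.13 ± 0.16).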
